A study of Rattus norvegicus with 4 samples.

Results

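This account covers 34 genes of antioxidant defence in rat lung. These are the NRF2 regulators, the glutathione and thioredoxin systems, superoxide dismutases, catalase, ferritin and genes listed for NADPH supply. They were chosen by gene symbol from a fixed list, and 32 of them had a row among the 22050 genes of the tables. Srxn1 (sulfiredoxin) and Pgd (6-phosphogluconate dehydrogenase) had no row under their symbol and were not analysed here. All 32 passed the filter on low counts, which left 15709 genes for testing. Whole-lung mRNA came from 2 rats given bleomycin and 2 rats given normal saline, all SD rats, with 1 library per rat. Bleomycin, an antitumour antibiotic that cleaves DNA in an iron- and oxygen-dependent reaction and is widely used to produce lung fibrosis in rodents, was given at 5 mg/kg in 0.2 mL by 1 intratracheal injection. Control rats received the same volume of saline, and lungs were taken on day 28 in both groups. The labels used here state neither age nor sex.

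NRF2, encoded by Nfe2l2, is a transcription factor that KEAP1 holds at a low level by presenting it to a ubiquitin ligase. Oxidants and electrophiles modify KEAP1, and NRF2 then accumulates, pairs with small MAF proteins and binds antioxidant response elements near genes for glutathione synthesis, quinone reduction, heme breakdown and thioredoxin recycling. Because this control acts mainly on the protein, the mRNA level of Nfe2l2 is not a measure of its activity. In the lung, airway and alveolar cells, macrophages and blood meet oxygen at high pressure, and peroxides are removed by peroxidases that draw reducing power from glutathione, thioredoxin and, in the end, NADPH.

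In bleomycin-treated lungs 8 of the 32 genes were higher and 1 was lower by the quasi-likelihood test of edgeR (adjusted p below 0.05). The higher ones were heme oxygenase 1 (Hmox1), the peroxidases Gpx1, Gpx7, Prdx1, Prdx4 and Prdx5, the mitochondrial superoxide dismutase Sod2 and the ferritin light chain Ftl1. The lower one was Prdx6, the peroxiredoxin with phospholipase activity that is abundant in lung. Among all tested genes 16.7% were called, 9.27% higher and 7.44% lower, against 25% higher and 3.13% lower among the members. As the members were chosen with earlier results of these data known, these shares are a description and not a test. The median log2 change was 0.39 over the members and 0.01 over all tested genes. Both bleomycin libraries lay above both controls for 22 members and below both for 7, so the groups did not overlap for 29 of 32. Over all tested genes the groups did not overlap for 68.5%, with 35.1% above and 33.4% below.

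The 4 libraries held between 34683699 and 44381111 counts, so 3 counts corresponded to between 0.0676 and 0.0865 CPM. CPM are counts scaled to library totals after TMM adjustment. Log2 changes set bleomycin over control, with ± for their standard error (SE), and a gene called so many fold lower has control over bleomycin as its fold. Adjusted p are by Benjamini-Hochberg over all tested genes. With 2 libraries a group, every member call depended on having both controls. Without control replicate 1 no member was called (smallest edgeR adjusted p = 0.125, with 7 members at an unadjusted p under 0.05), when 0.0807% of all tested genes were higher and 0.0497% lower (0.13% in all). Without control replicate 2 none was called either (smallest edgeR adjusted p = 0.1002, with 14 members at an unadjusted p under 0.05), when 0.137% were higher and 0.0809% lower (0.218% in all). DESeq2 on all 4 libraries called 16 members higher and 1 lower, against 13.6% and 12% of all tested genes (25.6% in all). Without bleomycin replicate 1 edgeR called 8 members higher and 1 lower, against 8.03% and 6.94% (15% in all), and without bleomycin replicate 2 it called 18 higher and 4 lower, against 16% in each direction (32% in all). For 28 of the 32 members (87.5%) the first bleomycin library was the one more distant from the controls' average, against 67.5% of all tested genes.

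**Figure D1:**
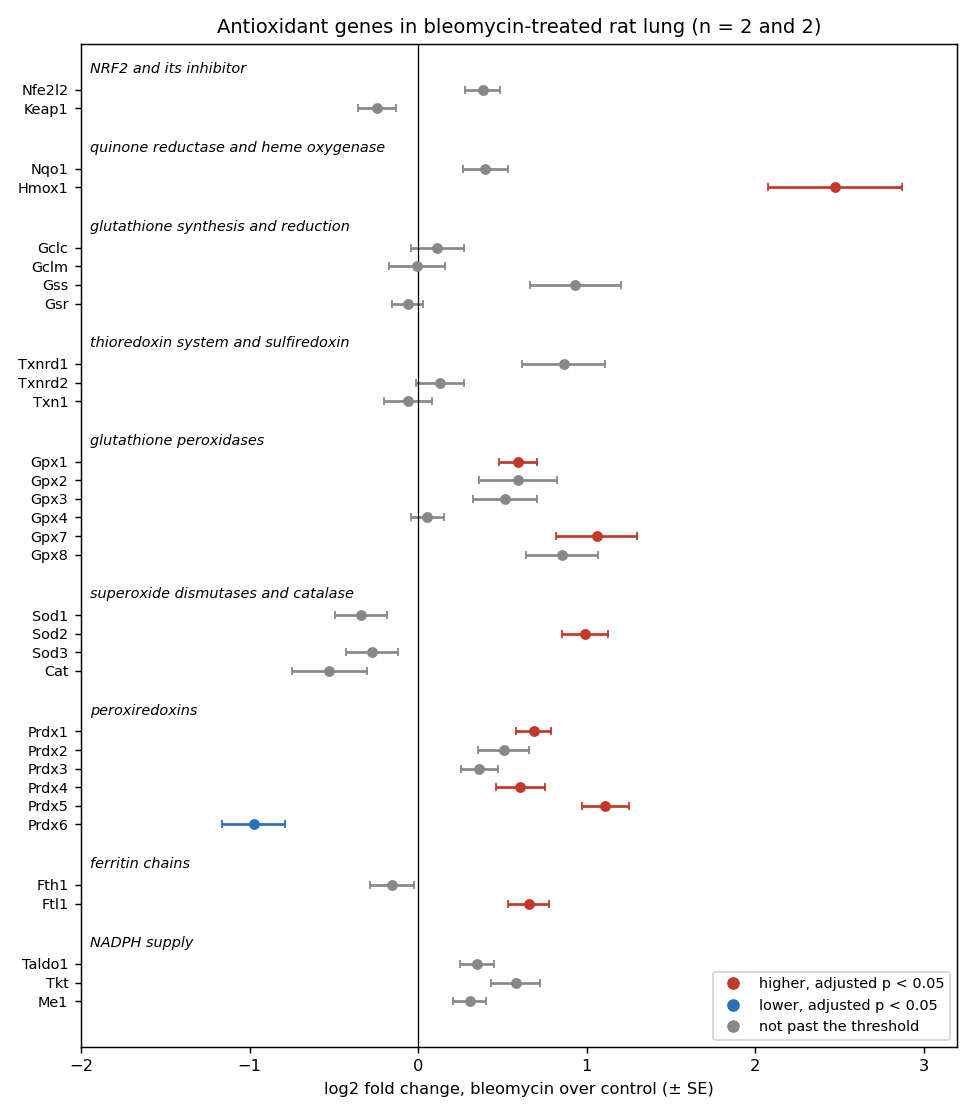
Log2 fold change of the 32 measured genes, bleomycin over control, grouped by role, with bars for ± 1 SE (n = 2 libraries a group). Of these, 8 red points (adjusted p under 0.05, higher) and 1 blue point (lower, Prdx6) passed the test, while Gclc, Gclm, Gsr, Txn1 and Gpx4 sit close to 0.

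Cell composition bears on every level in a piece of lung, since in bulk RNA fewer cells of a type and less RNA per cell cannot be told apart. Lung epithelium was present in all libraries, with Sftpc between 6823 and 15438 CPM. Of 9 tested macrophage markers 5 were higher and none lower, with a summed level of 1615 to 1807 CPM in bleomycin libraries and 1090 to 1203 CPM in controls. Of 8 fibroblast markers 4 were higher (8179 to 15412 against 3366 to 3367 CPM). Most of that sum was the collagen genes Col1a1, Col1a2 and Col3a1, and the other call was Lum. The groups did not overlap for Pdgfrb, which did not pass, and overlapped for Pdgfra, Dcn and Postn. All 5 cycling-cell markers were higher (184 to 303 against 59.7 to 61.4 CPM). Markers that fell numbered 5 of 6 for alveolar type 1 cells (2403 to 3587 against 6179 to 6784 CPM), 2 of 3 for club cells (1929 to 2229 against 9894 to 10580 CPM), 3 of 4 for ciliated cells (188 to 271 against 540 to 606 CPM), 3 of 4 for endothelium (1444 to 2022 against 3769 to 4386 CPM) and 4 of 6 for red cells (2117 to 2334 against 3451 to 4703 CPM). Genes listed as alveolar macrophage markers split, with 1 of 6 higher (Siglec1) and 1 lower (Car4), and a summed level of 311 to 404 against 379 to 438 CPM. For alveolar type 2 cells none of 7 markers passed by edgeR (2 at an unadjusted p under 0.05, 2 lower by DESeq2; 16823 to 27650 against 28843 to 29228 CPM). None of 5 neutrophil markers passed by edgeR (1 at an unadjusted p under 0.05, 1 lower by DESeq2), the summed level was 80.4 to 111 against 126 to 184 CPM, and the granule protein gene Ltf had no count in any library. Heart muscle markers, 0 of 8 called by edgeR (0 at an unadjusted p under 0.05, 0 by DESeq2), summed to 76.3 and 126 CPM in bleomycin libraries against 220 CPM in control replicate 1 and 40.2 CPM in control replicate 2. The part of these cell types in the results below was not tested, apart from the values given without control replicate 1.

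Neither Nfe2l2 nor Keap1 passed the test. Nfe2l2 (ENSRNOG00000001548) had 177 and 176 CPM in bleomycin libraries against 130 and 142 CPM in controls, a log2 change of 0.38 ± 0.10 (SE, edgeR adjusted p = 0.0637). The bleomycin libraries were level with each other and above both controls. It was called by DESeq2 (adjusted p = 0.0245). Its log2 change was 0.372 without bleomycin replicate 1 and 0.371 without bleomycin replicate 2. Keap1 (ENSRNOG00000020878), its inhibitor, had 63.8 CPM in each bleomycin library against 69.9 and 81.2 CPM in controls, with a log2 change of -0.25 ± 0.11 (edgeR adjusted p = 0.181). On the length-scaled FPKM scale, which allows levels of different genes to be compared, Keap1 was at 0.263 and 0.264 of the Nfe2l2 level in bleomycin libraries and at 0.394 and 0.419 in controls. These ratios did not overlap, but with 2 libraries a group an exact two-sided permutation test cannot go below p = 0.333. The same holds for every other ratio and share given here, and none is tested.

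Of 9 partners and regulators of NRF2 that are not on the member list, 1 was lower and none was higher by edgeR. The lower share was 11.1%, against 7.44% of all tested genes, and DESeq2 called 2 lower. Bach2, a repressor of the BACH family that can occupy the same DNA elements, had 7.42 and 9.51 CPM against 18.2 and 15.5 CPM, 1.99-fold lower (log2 change -0.99 ± 0.19, edgeR adjusted p = 0.0314). Nfe2l1, which encodes the related factor NRF1, had 167 and 203 CPM against 298 and 249 CPM (edgeR adjusted p = 0.0645). It was 1.35-fold lower without bleomycin replicate 1 and 1.66-fold lower without bleomycin replicate 2. The Bach2 call was lost without control replicate 1 (edgeR adjusted p = 0.192) and without control replicate 2 (0.131).

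Antioxidant response elements are commonly written with the core TGACNNNGC. RefSeq promoters of the GRCr8 build, from 250 bases before to 50 after an annotated start, were found for 25 of the 32 members. Hmox1, Gsr, Gpx8, Sod3, Prdx6, Fth1 and Ftl1 had no entry. The core was present on either strand in 9 of the 25 (36%), against 15.4% of the 11285 tested genes with an entry, counting any start site of a gene. It was found in 4 of 6 higher members and in 5 of 19 that did not pass. Besides those printed, the ninth was Nfe2l2 itself. A match of these letters is a description and not a binding site, and absence from this window says nothing of elements farther away. The 8 stretches follow, each the 9 matching bases in capitals with 10 bases on either side, read along the gene's own strand. The first 4 belong to members that were higher in bleomycin-treated lungs, and the other 4 to members that did not pass.
Prdx1 (chr5:135383761-135383789, + strand): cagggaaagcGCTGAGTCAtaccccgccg
Prdx5 (chr1:213532010-213532038, - strand): cctcctgtggGCAGAGTCAtctgcgggtg
Sod2 (chr1:50050185-50050213, - strand): ggcgctgccgGCAGGGTCAgcgcctagct
Prdx4 (chrX:43878742-43878770, + strand): tttcgtgctcGCTTGGTCAtggaaacgtg
Gclm (chr2:213031953-213031981, + strand): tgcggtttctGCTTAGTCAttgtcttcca
Txnrd1 (chr7:22755964-22755992, - strand): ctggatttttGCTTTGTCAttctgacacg
Gpx2 (chr6:101230028-101230056, - strand): acctggtttcGCTAAGTCAttctgggaat
Me1 (chr8:96540393-96540421, - strand): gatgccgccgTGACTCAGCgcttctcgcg

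In 7 of these 8 the core lies on the opposite strand, so it appears as GCNNNGTCA, and in Me1 it lies on the gene's strand. The matches in Prdx1 and Me1 also contain TGACTCA, the element of the AP-1 family, on one strand or the other. The core also begins upstream of the start in Me1, Txnrd1, Sod2, Gpx2 and Prdx5, as it does in Prdx1 and Gclm. As 2 examples, picked with their values known from a member that was higher (Prdx1) and one whose groups overlapped (Gclm), the bases from -250 to -101 relative to the start are given for both, with the core in capitals.
Prdx1 (chr5:135383656-135383805, + strand): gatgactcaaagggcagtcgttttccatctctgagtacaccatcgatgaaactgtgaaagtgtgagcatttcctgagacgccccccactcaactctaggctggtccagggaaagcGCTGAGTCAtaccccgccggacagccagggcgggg
Gclm (chr2:213031885-213032034, + strand): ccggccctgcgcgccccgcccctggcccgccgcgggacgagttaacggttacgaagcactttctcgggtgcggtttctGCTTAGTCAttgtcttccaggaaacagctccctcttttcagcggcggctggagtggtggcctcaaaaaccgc

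Heme oxygenase 1 showed the largest change of any member. Hmox1 (ENSRNOG00000014117), which opens heme to biliverdin, carbon monoxide and iron, had 318 and 142 CPM in bleomycin libraries against 38.0 and 44.9 CPM in controls. Both bleomycin libraries were far above both controls, and the first was well above the second. The fold change was 5.55 (log2 2.47 ± 0.40, edgeR adjusted p = 0.0238), or 3.42 without bleomycin replicate 1. Nqo1 (ENSRNOG00000012772), the quinone reductase often used as a readout of NRF2, had 74.6 and 70.9 CPM against 49.2 and 61.1 CPM. Its groups did not overlap, and its log2 change of 0.40 ± 0.13 did not pass (edgeR adjusted p = 0.0990, between 0.0944 and 0.506 over the alternatives).

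Of 19 other tested genes of heme and iron handling, 8 were higher (42.1%, against 9.27% of all tested genes) and none lower. This list too was chosen with earlier results of these data known. Steap3, a reductase that turns ferric into ferrous iron in endosomes, had 19.1 and 15.5 CPM against 4.40 and 5.04 CPM, 3.66-fold higher (edgeR adjusted p = 0.0128). Lcn2, which binds iron-carrying siderophores, had 912 and 725 CPM against 162 and 94.8 CPM, 6.38-fold higher (edgeR adjusted p = 0.0142, but 0.0588 without bleomycin replicate 1). Cd163, the macrophage receptor that takes up haemoglobin bound to haptoglobin, had 223 and 50.1 CPM against 13.4 and 14.6 CPM. It was 9.75-fold higher, a fold that became 3.56 when bleomycin replicate 1 was left out and 15.8 when bleomycin replicate 2 was. The metal importer gene Slc39a14 had 95.4 and 41.0 CPM against 8.66 and 12.2 CPM, 6.53-fold higher, or 3.91-fold without bleomycin replicate 1. The transferrin receptor gene Tfrc was 1.45-fold higher and the ferroxidase gene Cp, ceruloplasmin, 2.12-fold higher. Hpx and Steap4 completed the 8. The iron exporter gene Slc40a1 had no count in any library. The Cd163 call was also lost without the filter on low counts (edgeR adjusted p = 0.0761). Cd163, Slc39a14, Tfrc, Cp, Hpx, Steap4 and Slc40a1 were chosen after their values were seen, and without either control none of these calls remained.

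Of the ferritin chains, which form the shell that stores iron, 1 of 2 was higher, against 9.27% of all tested genes. Ftl1 (ENSRNOG00000020843), the light chain, had 1530 and 1567 CPM in bleomycin libraries against 983 and 985 CPM in controls. Replicates lay close together in both groups, and the light chain was 1.57-fold higher (log2 0.65 ± 0.12, edgeR adjusted p = 0.0295). Fth1 (ENSRNOG00000022619), the heavy chain with ferroxidase activity, had 2103 and 2185 CPM against 2361 and 2410 CPM (log2 -0.15 ± 0.13, edgeR adjusted p = 0.442). Per length, the heavy chain stood at 0.914 and 0.928 of the light chain in bleomycin libraries and at 1.60 and 1.63 in controls. Ftl1 was the 11th gene by FPKM in both bleomycin libraries and ranked 21 and 19 in controls. The RefSeq gene table lists 21 genes or pseudogenes named as copies of Ftl1 and 6 of Fth1, and how reads that fit several of them were counted is not given, so both levels are uncertain to that extent. Ftl1 kept a fold change of 1.54 to 1.59 whichever library was left out, while its call was lost without either control.

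**Figure D2:**
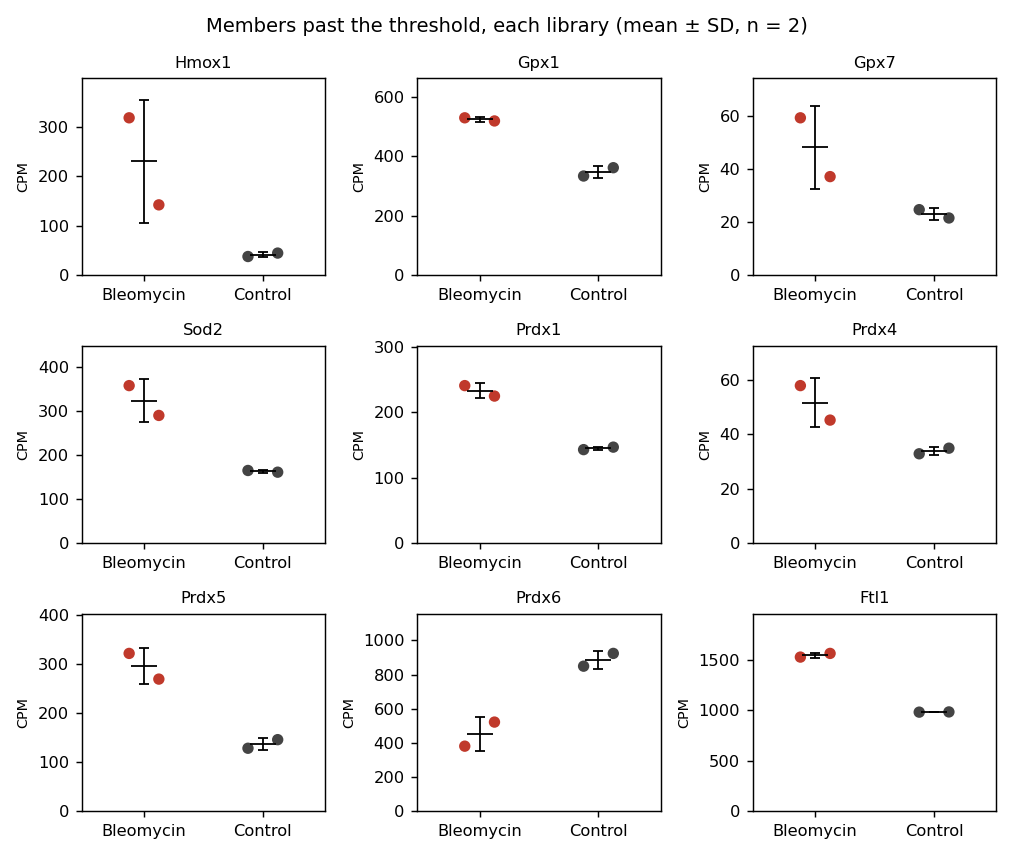
CPM in each library for the 9 members past the threshold, bleomycin (red) left of control (dark grey), with the mean and SD of 2 libraries. The bleomycin libraries lie apart from the controls in every panel, and the Hmox1 pair in bleomycin libraries, at 318 and 142 CPM, is spread widely relative to its mean.

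Glutathione is the thiol tripeptide that feeds glutathione peroxidases. Of the enzymes that make and recycle it, none of 4 was called by edgeR, with 1 at an unadjusted p under 0.05 and 1 called by DESeq2, both being Gss. Gclc (ENSRNOG00000006302), the catalytic subunit of the rate-limiting ligase, had 48.0 and 36.1 CPM against 38.2 and 39.5 CPM, so the groups overlapped (log2 0.11 ± 0.16, edgeR adjusted p = 0.643). Gclm (ENSRNOG00000013409), its modifier subunit, had 31.7 and 26.9 CPM against 25.9 and 33.1 CPM and overlapped too (log2 -0.01 ± 0.17, edgeR adjusted p = 0.976). With single libraries left out, the Gclc fold lay between 0.925 and 1.22 and the Gclm fold between 0.879 and 1.13. Gsr (ENSRNOG00000014915), the reductase that regenerates glutathione from its disulfide, had 74.4 and 74.8 CPM against 76.8 and 79.2 CPM (log2 -0.06 ± 0.09, edgeR adjusted p = 0.650).

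Gss (ENSRNOG00000018964), glutathione synthetase, differed from these in its values. It had 39.8 and 23.3 CPM in bleomycin libraries against 15.8 and 17.2 CPM in controls, both above both, with a log2 change of 0.93 ± 0.27 (edgeR adjusted p = 0.0741). It was called by DESeq2 (adjusted p = 0.0101) and by edgeR without bleomycin replicate 2 (adjusted p = 0.00505), and not without bleomycin replicate 1 (0.0733). The gene overlaps Myh7b in the RefSeq annotation, and Myh7b stood at 4.23 and 5.15 CPM against 4.81 and 4.40 CPM (edgeR adjusted p = 0.942).

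Of 12 tested genes that bring in cystine, turn glutathione over or use it as glutaredoxins, 4 were higher and none lower. The higher share was 33.3%, against 9.27% of all tested genes. Slc7a11, the cystine-glutamate exchanger that supplies cysteine for glutathione, had 41.5 and 20.5 CPM in bleomycin libraries against 0.579 and 1.10 CPM in controls, from 1637 and 905 counts against 20 and 48. It was 36.2-fold higher (log2 5.18 ± 0.50, edgeR adjusted p = 0.0125). The fold was 24 without bleomycin replicate 1 and 53.5 without control replicate 2. Its partner subunit gene Slc3a2, shared by several amino acid transporters, had 227 and 231 CPM against 261 and 224 CPM (edgeR adjusted p = 0.656) and was named after its values were seen. Glrx, a glutaredoxin that reduces glutathione-protein disulfides, was 2.04-fold higher, at 91.6 and 72.4 CPM against 38.7 and 41.8 CPM (edgeR adjusted p = 0.0187). Glrx3, a glutaredoxin of iron-sulfur cluster handling, was 1.61-fold higher (edgeR adjusted p = 0.0192). Ggt1, the surface enzyme that begins glutathione breakdown, was 2.19-fold higher and was also named after its values were seen. Without control replicate 1 or 2 none of the 4 was called, with an edgeR adjusted p for Slc7a11 of 0.0646 and 0.0628.

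**Figure D3:**
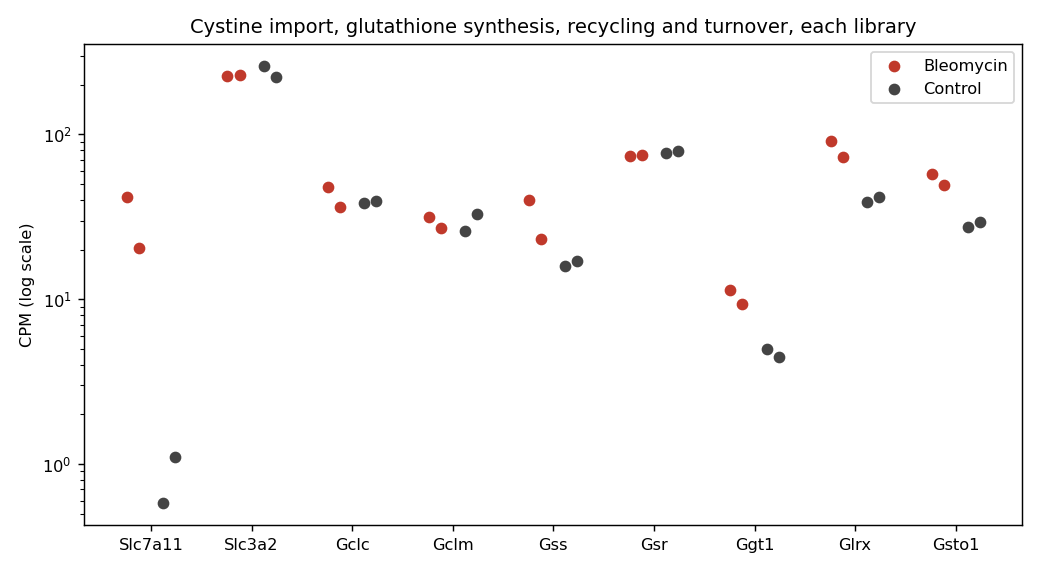
CPM on a log scale in each library for genes of cystine import (Slc7a11, Slc3a2), glutathione synthesis (Gclc, Gclm, Gss), recycling (Gsr), breakdown (Ggt1) and use (Glrx, Gsto1), bleomycin in red left of control in dark grey. Slc7a11 separates the groups widely, at 41.5 and 20.5 CPM against 0.579 and 1.10 CPM, while the groups overlap for Gclc and Gclm.

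Glutathione transferases, which couple glutathione to electrophiles, went both ways, with 3 of 16 tested higher and 3 lower. Each share was 18.75%, against 9.27% higher and 7.44% lower of all tested genes. Gsto1, of the omega class, had 57.7 and 49.1 CPM against 27.5 and 29.4 CPM, 1.88-fold higher (edgeR adjusted p = 0.0176). Hpgds, the prostaglandin D synthase of this family, was 3.06-fold higher at 5.78 and 6.08 CPM against 1.85 and 2.02 CPM (edgeR adjusted p = 0.0195). Gstm2, of the mu class, had 103 and 86.4 CPM against 172 and 169 CPM and was lower by a log2 change of -0.85 ± 0.12 (edgeR adjusted p = 0.0196). Gstm3 was the third that was higher, and Gsta4 and Gstm1 were the others that were lower, all named after their values were seen. The mu-class genes are close relatives, and reads shared between them could blur their levels. Without either control none of these calls remained, and Gstm3 was also lost without bleomycin replicate 1 (edgeR adjusted p = 0.0860).

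Of the 6 glutathione peroxidases 2 were called higher, against 9.27% of all tested genes. For all 6 both bleomycin libraries lay above both controls, as for 35.1% of all tested genes. Gpx1 (ENSRNOG00000048812), the cytosolic selenoenzyme that reduces hydrogen peroxide, had 529 and 518 CPM against 333 and 361 CPM. It was 1.51-fold higher (log2 0.59 ± 0.11, edgeR adjusted p = 0.0309). Gpx7 (ENSRNOG00000009751), a peroxidase of the endoplasmic reticulum that carries cysteine in place of selenocysteine and passes oxidizing power to protein folding, had 59.4 and 37.2 CPM against 24.8 and 21.6 CPM. It was 2.08-fold higher (log2 1.06 ± 0.24, edgeR adjusted p = 0.0451). Gpx8 (ENSRNOG00000010461), its membrane-bound relative in the same compartment, had 33.5 and 22.5 CPM against 15.1 and 15.9 CPM, with a log2 change of 0.85 ± 0.21 just outside the threshold (edgeR adjusted p = 0.0548). Gpx8 was called by DESeq2 (adjusted p = 0.00678) and without the filter on low counts (edgeR adjusted p = 0.0453). Its fold was 1.44 without bleomycin replicate 1 and 2.14 without bleomycin replicate 2. In both genes bleomycin replicate 1 was the higher of the pair, as were the summed levels of fibroblast, macrophage and cycling-cell markers. Among these markers Postn, Adgre1 and, slightly, Msr1 had the opposite order. Bleomycin replicate 1 was also the more distant from the controls' average for 67.5% of all tested genes. The part of these cell types was not tested. The Gpx1 and Gpx7 calls were lost without control replicate 1 (edgeR adjusted p = 0.285 and 0.163) or control replicate 2 (0.2002 and 0.197).

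The most abundant of the family was Gpx3 (ENSRNOG00000052564), the peroxidase secreted into plasma and lining fluid, with 1473 and 1076 CPM against 934 and 849 CPM (log2 0.52 ± 0.19, edgeR adjusted p = 0.118). Gpx2 (ENSRNOG00000055672), the epithelial form, had 244 and 163 CPM against 151 and 119 CPM (log2 0.59 ± 0.23, edgeR adjusted p = 0.138). Without bleomycin replicate 2 the folds of Gpx3 and Gpx2 were 1.63 and 1.79, and without bleomycin replicate 1 both were 1.20. DESeq2 called Gpx3 (adjusted p = 0.0393) and not Gpx2 (0.0607). Gpx4 (ENSRNOG00000013604), which protects membrane lipids from peroxidation, had 150.3 and 144 CPM against 142 and 141 CPM (log2 0.05 ± 0.10, edgeR adjusted p = 0.719). Per length, the family summed to 2112 and 1685 FPKM against 1351 and 1298 FPKM. Gpx3 made up 47.9% and 43.2% of it against 46.9% and 44.6%, so its share overlapped between groups. The share of Gpx4 was 7.69% and 9.12% against 11.3% and 11.7%.

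Of the thioredoxin system, none of 3 members was called by edgeR, with 1 at an unadjusted p under 0.05 and 1 called by DESeq2. In both cases this was Txnrd1 (ENSRNOG00000009088), the cytosolic selenoenzyme that keeps thioredoxin reduced. It had 184 and 111 CPM in bleomycin libraries against 78.1 and 84.4 CPM in controls, both above both, with a log2 change of 0.86 ± 0.25 (edgeR adjusted p = 0.0736). It was called without bleomycin replicate 1 (edgeR adjusted p = 0.0443) and without bleomycin replicate 2 (0.00370), when the fold was 1.37 and 2.24. Txn1 (ENSRNOG00000012081), thioredoxin itself, had 153 and 122 CPM against 137 and 150.4 CPM and overlapped (edgeR adjusted p = 0.789). Txnrd2 (ENSRNOG00000001890), the mitochondrial reductase, had 15.1 and 14.2 CPM against 14.1 and 12.7 CPM (edgeR adjusted p = 0.556).

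Among 14 other genes of thioredoxin-fold proteins and methionine sulfoxide repair, 2 were higher and none lower by edgeR. The higher share was 14.3%, against 9.27% of all tested genes. At an unadjusted p under 0.05, 5 were higher and 2 lower, and DESeq2 called 2 higher and 2 lower. Txnrd3, the reductase best known from testis, had 26.4 and 32.3 CPM against 13.3 and 13.2 CPM, 2.22-fold higher (edgeR adjusted p = 0.0167). Txndc5, a disulfide isomerase of the endoplasmic reticulum, had 312 and 254 CPM against 177 and 182 CPM, 1.58-fold higher (edgeR adjusted p = 0.0358). Both calls were lost without either control, with an edgeR adjusted p of 0.116 and 0.108 for Txnrd3 and 0.245 and 0.208 for Txndc5.

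Peroxiredoxins, which reduce peroxides through a reactive cysteine, had 3 of 6 members higher and 1 lower. These shares were 50% and 16.7%, against 9.27% and 7.44% of all tested genes. Prdx5 (ENSRNOG00000021125), found in mitochondria, peroxisomes and cytosol, had 321 and 269 CPM in bleomycin libraries against 128 and 145 CPM in controls. It was 2.16-fold higher (log2 1.11 ± 0.14, edgeR adjusted p = 0.0167), the smallest adjusted p of any member. Its fold was 2.01 without control replicate 1, the library high in heart transcripts. Prdx1 (ENSRNOG00000017194), the abundant cytosolic form that sulfiredoxin can repair, had 241 and 225 CPM against 143 and 147 CPM. Replicates were close in both groups, and Prdx1 was 1.61-fold higher (log2 0.68 ± 0.10, edgeR adjusted p = 0.0206). Prdx4 (ENSRNOG00000003763), the secretory-pathway form, had 58.0 and 45.3 CPM against 32.9 and 34.9 CPM. It was 1.52-fold higher with a value at the edge of the threshold (log2 0.61 ± 0.15, edgeR adjusted p = 0.0498). The Prdx4 call was lost with RLE scaling (edgeR adjusted p = 0.0511), without bleomycin replicate 1 (0.0620), without control replicate 1 (0.262) and without control replicate 2 (0.201). Those of Prdx1 and Prdx5 were lost without either control. The RefSeq gene table names 8 copies of Prdx1 and 3 of Prdx6, and how shared reads were counted is not given. Prdx5 overlaps Trmt112, which had 51.7 and 44.3 CPM against 42.6 and 44.8 CPM and did not pass (edgeR adjusted p = 0.441).

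Prdx6 (ENSRNOG00000002896) was lower in bleomycin-treated lungs. This form reduces phospholipid peroxides, takes its reducing power from glutathione, and takes part in surfactant phospholipid turnover. It had 380 and 521 CPM in bleomycin libraries against 849 and 924 CPM in controls, so the highest bleomycin value lay below the lowest control. It was 1.97-fold lower (log2 -0.98 ± 0.19, edgeR adjusted p = 0.0306), with a call that was lost without control replicate 1 (edgeR adjusted p = 0.149) or control replicate 2 (0.1696). Beside it, most of the club cell, alveolar type 1, ciliated, endothelial and red cell markers given above were lower. Summed alveolar type 2 markers, none of which passed by edgeR, were 16823 CPM in bleomycin replicate 1, where Prdx6 was also lowest. They were 27650 CPM in bleomycin replicate 2 and 28843 and 29228 CPM in controls. The part of these cell types in the fall of Prdx6 was not tested. The remaining forms lay between, neither passing. Prdx2 (ENSRNOG00000003520), abundant in red cells, had 195 and 154 CPM against 116 and 129 CPM (log2 0.51 ± 0.15, edgeR adjusted p = 0.0771). Red cell markers were lower, and their part in the Prdx2 level was not tested. Prdx3 (ENSRNOG00000010958), the mitochondrial matrix form, had 69.8 and 63.6 CPM against 55.0 and 48.8 CPM (log2 0.36 ± 0.11, edgeR adjusted p = 0.0832). Without bleomycin replicate 2 both were called (edgeR adjusted p = 0.0133 and 0.0489).

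Per length, the shares of the family's members lay apart between groups, while its sum did not. Peroxiredoxins summed to 1279 and 1214 FPKM in bleomycin libraries against 1124 and 1223 FPKM in controls, and these overlapped. Prdx6 supplied 21.3% and 30.4% of that sum against 53.6% and 53.9%. Prdx5 supplied 31.0% and 26.9% against 13.9% and 14.6%, and Prdx1 21.4% and 20.7% against 14.3% and 13.5%. Prdx6 was the leading peroxiredoxin in both controls and in bleomycin replicate 2, and Prdx5 led in bleomycin replicate 1.

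**Figure D4:**
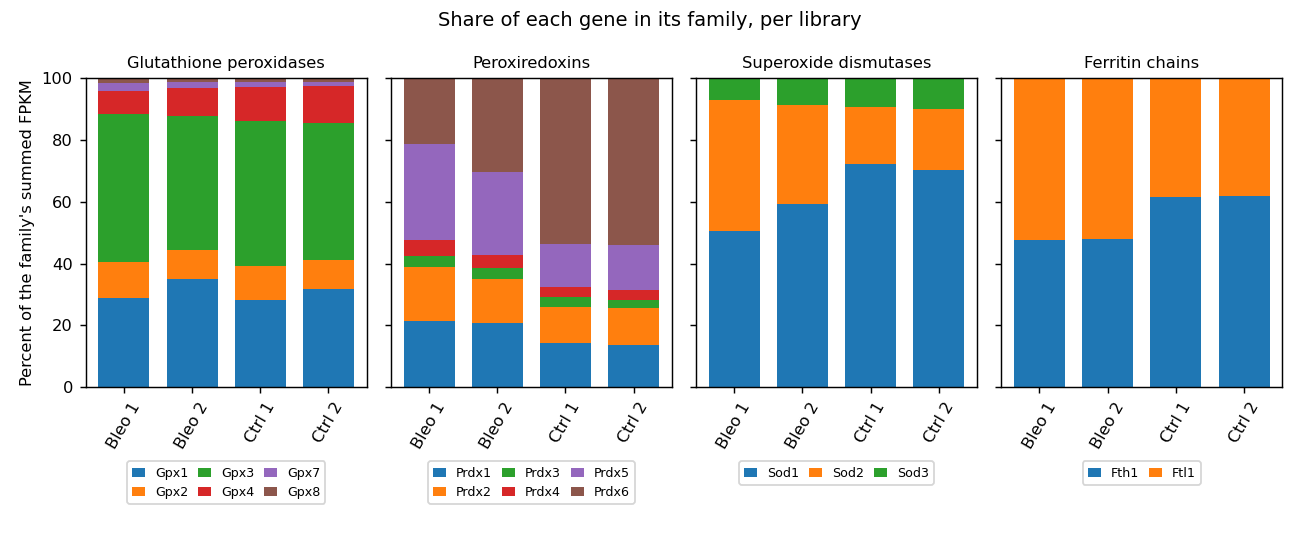
Percent of each family's summed FPKM supplied by each gene in each library, bleomycin libraries left of controls. Prdx6 takes 21.3% and 30.4% of peroxiredoxin FPKM in bleomycin libraries and over 53% in both controls, and Sod2 and Ftl1 take larger shares in both bleomycin libraries than in the controls.

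Of the superoxide dismutases, which turn superoxide into hydrogen peroxide, and catalase, 1 of 4 was higher and none lower. Over all tested genes 9.27% were higher and 7.44% lower. Sod2 (ENSRNOG00000019048), the manganese enzyme of mitochondria, had 359 and 291 CPM in bleomycin libraries against 165 and 161 CPM in controls. It was 1.99-fold higher (log2 0.99 ± 0.14, edgeR adjusted p = 0.0187), and 1.99-fold also without control replicate 1. The call was lost without control replicate 1 (edgeR adjusted p = 0.134) or control replicate 2 (0.132). Sod1 (ENSRNOG00000002115), the cytosolic copper-zinc enzyme, had 135 and 171 CPM against 207 and 181 CPM (log2 -0.34 ± 0.15, edgeR adjusted p = 0.179). Sod3 (ENSRNOG00000003869), the extracellular form that binds matrix, had 49.1 and 64.4 CPM against 70.6 and 66.8 CPM (log2 -0.27 ± 0.15, edgeR adjusted p = 0.252). Cat (ENSRNOG00000008364), the peroxisomal catalase that breaks hydrogen peroxide down, had 180.5 and 273 CPM against 354 and 299 CPM (log2 -0.53 ± 0.22, edgeR adjusted p = 0.161). For these last 3 genes both bleomycin libraries lay below both controls, as for 33.4% of all tested genes. Their log2 changes were -0.534, -0.498 and -0.871 without bleomycin replicate 2. Without bleomycin replicate 1 they were -0.185, -0.0964 and -0.264. DESeq2 called none of the 3 (adjusted p = 0.155, 0.305 and 0.0777). Per length, Sod2 was at 0.843 and 0.541 of Sod1 in bleomycin libraries and at 0.254 and 0.284 in controls.

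Genes listed for NADPH supply did not pass. NADPH is the final source of electrons for glutathione and thioredoxin reductases. Of the 3 members, Me1 encodes an enzyme that makes it, while Tkt and Taldo1 encode pentose phosphate enzymes that do not. None of the 3 members was called by edgeR, though all 3 had an unadjusted p under 0.05 and 2 were called by DESeq2. Tkt (ENSRNOG00000016064), transketolase of the pentose phosphate pathway, had 514 and 418 CPM against 296 and 328 CPM (log2 0.58 ± 0.15, edgeR adjusted p = 0.0561). Taldo1 (ENSRNOG00000018367), transaldolase, had 265 CPM in each bleomycin library against 202 and 214 CPM (log2 0.35 ± 0.10, edgeR adjusted p = 0.0758). Me1 (ENSRNOG00000009715), the cytosolic malic enzyme, had 38.9 and 37.6 CPM against 30.9 and 31.0 CPM (log2 0.31 ± 0.10, edgeR adjusted p = 0.0902). All 3 had both bleomycin libraries above both controls, as had 35.1% of all tested genes. Tkt and Taldo1 were called by DESeq2 (adjusted p = 0.00454 and 0.0286) and by edgeR without bleomycin replicate 2 (0.0121 and 0.0456).

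Of 13 further genes listed for NADPH supply 1 was lower (7.69%, against 7.44% of all tested genes) and none higher by edgeR. The fold was above 1 for 9 of them and below 1 for 4. At an unadjusted p under 0.05, 4 were higher and 1 lower, and DESeq2 called 2 higher and 1 lower. Me3, a mitochondrial malic enzyme, had 3.67 and 5.49 CPM against 11.3 and 10.1 CPM, 2.32-fold lower (edgeR adjusted p = 0.0358, lost without either control at 0.195 and 0.152).

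Genes for enzymes that make superoxide and hydrogen peroxide were measured beside those that remove them. Of 15 tested, 5 were higher (33.3%, against 9.27% of all tested genes) and none lower. Duox1, a dual oxidase of airway epithelium, had 21.6 CPM in each bleomycin library against 9.26 and 9.76 CPM, 2.27-fold higher (edgeR adjusted p = 0.0142). Subunits of the phagocyte oxidase were higher too. Ncf4 was 1.70-fold higher at 42.9 and 33.1 CPM against 22.3 CPM in each control (edgeR adjusted p = 0.0345), and Ncf1 1.91-fold higher at 140.4 and 208 CPM against 92.3 and 90.5 CPM (edgeR adjusted p = 0.0408). Cyba was 1.55-fold higher, and Duox2 18.9-fold higher at 27.9 and 4.65 CPM against 1.10 and 0.642 CPM. The Duox2 fold was 5.37 without bleomycin replicate 1 and 32.3 without bleomycin replicate 2, and its call was lost without the filter on low counts (edgeR adjusted p = 0.0773), as was that of Cyba without bleomycin replicate 1 (0.0761). These last 2 were named after their values were seen. Cybb, the catalytic subunit of the phagocyte enzyme, had 352 and 424 CPM against 257 and 290.4 CPM and did not pass (edgeR adjusted p = 0.0709), and it too was named after its values were seen. None of the 5 calls remained without either control. Among macrophage markers 5 of 9 tested were higher in the same libraries. Mrc1 and Mertk did not pass, and Adgre1 and Csf1r overlapped between groups. The part of these cells was not tested.

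Other textbook targets of NRF2 were divided, with 2 of 14 higher and 2 lower (14.3% each, against 9.27% and 7.44% of all tested genes). Ugdh, which makes the glucuronate donor, had 87.4 and 76.4 CPM against 32.2 and 32.6 CPM, 2.53-fold higher (edgeR adjusted p = 0.0102). Aldh3a1, an aldehyde dehydrogenase of surface epithelia, had 2.63 and 2.77 CPM against 11.9 and 10.98 CPM, 4.24-fold lower (edgeR adjusted p = 0.0112). Akr1b8, an aldo-keto reductase, was 4.28-fold higher, or 2.70-fold without bleomycin replicate 1, and Osgin1, a stress-induced growth inhibitor, was 1.66-fold lower. The last pair was named after its values were seen. All 4 calls were lost without either control. Counted over all 8 lists of genes outside the member list, 24 of 112 tested genes were higher (21.4%) and 7 lower (6.25%), against 9.27% and 7.44% of all tested genes. The lists were chosen with earlier results of these data known, so these shares are a description and not a test.

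**Figure D5:**
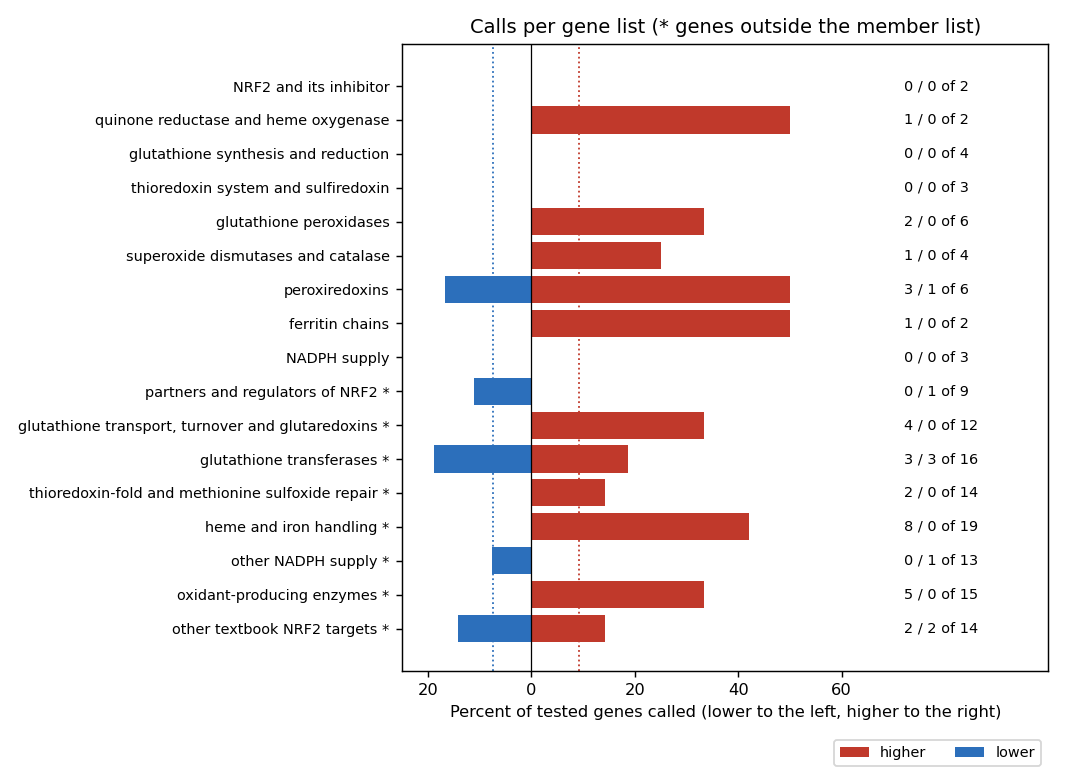
Percent of tested genes called higher (red, right) and lower (blue, left) in each list, with counts as higher / lower of tested at the right and the background over all tested genes as dotted lines (9.27% higher, 7.44% lower). Lists marked with an asterisk are genes outside the member list, among which heme and iron handling has 8 of 19 higher.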

How the data were processed

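Lung mRNA was measured in 2 bleomycin and 2 control libraries. The submitters' processing notes name StringTie 1.3.1, HISAT2, DESeq2, fastp 0.18.0 and CASAVA 1.8, with the build Rnor_6.0. Settings were not found in the labels. The authors deposited whole-number read counts per gene without normalization and, beside them, FPKM values rounded to 2 decimals. Per the labels' protocols cDNA was made without a stated strand mark, so overlapping genes may not have been told apart.

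Counts were tested with edgeR 4.0.16 in R 4.3.3 after filterByExpr (minimum count 10, total 15), with TMM scaling, robust quasi-likelihood fits and group as the only term. FPKM served for comparisons between genes and were not tested. Alternatives were RLE scaling, DESeq2 1.42.0, no filter, no robust estimates, a replicate block and leaving out each library. Counts of replicates differed by more than sampling noise, 96.6 times in the bleomycin pair and 22.6 times in the control pair. The labels give 1 rat per library, and p-values measure the spread between these rats. The test was tried on simulated counts.

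The members and gene lists were chosen with earlier results of these data known. Every member is named. From each other list the 2 genes of smallest p and, where 3 or more were called, the called gene of highest CPM are named, and others are marked as chosen after their values were seen. One gene that this rule names is not reported here.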

Additional observations from a re-analysis of the deposited data

How the results depend on the processing

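No member that was called changed direction under any alternative. DESeq2 called 4023 genes in all, of which 1887 were lower, against 2625 and 1169 by edgeR. It called 17 members, 16 of them higher, against 9 and 8, and 12 lower genes of the 8 other lists against 7. Leaving out 1 library at a time gave 21 to 5142 calls over all genes (13 to 2569 higher, 8 to 2573 lower), 0 to 22 over members (0 to 18 higher, 0 to 4 lower) and 0 to 47 over the other lists (0 to 33 higher, 0 to 14 lower). The low ends come from leaving out a control, which leaves 1 control assumed to vary like the bleomycin pair, and the high ends from leaving out bleomycin replicate 2. With a replicate block 5 members were higher and 1 lower, with Ftl1, Gpx1 and Prdx4 not called, against 1225 higher and 1025 lower of all 15709 tested genes. The labels give same-numbered rats no shared source, and their deviations from the group means had a correlation of -0.0218 over genes. The main fit did not pair them. A correlation over all genes cannot decide whether they shared a batch that touched few genes. RLE scaling called 8 members (1424 higher and 1199 lower over all genes), no filter 10 (1467 and 1221 of 18087) and no robust estimates 9 (1473 and 1180). Genes listed with few reads, such as Slc7a11 in controls with 20 and 48 counts, are limited by depth.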

Other observations

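By length-scaled level, the members spanned a wide range. Fth1 ranked 14 in both bleomycin libraries and 12 and 10 in controls among 22050 genes by FPKM, and Txnrd2 ranked 8933 and 9139 against 9111 and 9436. Prdx6 ranked 299 and 205 in bleomycin libraries against 88 and 80 in controls. Hmox1 ranked 394 and 957 against 3997 and 3385. Txn1, which did not pass, ranked 164 and 191 against 146 and 132.

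Tut4, which overlaps Gpx7 in the RefSeq annotation, did not pass the test. It had 35.1 and 30.1 CPM in bleomycin libraries against 41.4 and 34.4 CPM in controls (edgeR adjusted p = 0.331).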
